A study of Rattus norvegicus with 30 samples.

Results

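Oxidative phosphorylation genes encode the nuclear part of the mitochondrial respiratory chain and of ATP synthase. They were picked by name: all symbols on the array beginning with Nduf, Uqcr, Atp5, Cox4, Cox5, Cox6, Cox7 or Cox8, together with Sdha, Sdhb, Sdhc, Sdhd and Cyc1. The rule found 87 of the 14217 genes that had a probe set with a single symbol, and each gene was read from its brightest such probe set. Of the 87 genes, 34 encode subunits of complex I, 4 of complex II, 8 of complex III, 16 of complex IV and 15 of ATP synthase. The name rule also took 6 complex I assembly factors, the ATP synthase inhibitor Atp5if1, the pair Ndufa4 and Ndufa4l2, and 1 transcribed pseudogene, Cox6c-ps1. A low-signal filter (7.88 on the log2 scale) left 84 of them for testing among 10528 genes, and the 3 that failed it were the complex IV genes Cox6b2, Cox7b2 and Cox8b, with mean log2 signals of 4.59, 7.62 and 4.46.

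The RNA came from primary hepatocytes of male Sprague Dawley rats, bought frozen, plated on collagen under a Matrigel overlay and dosed on the third day of culture. Dioctyl phthalate, a plasticizer, was given at 250 or 1000 µM for 24 or 48 h, and vehicle wells received 1% DMSO for the same times. The DMSO content of the treated wells is not given in the labels. Each of the 6 groups held 5 independent wells, 1 array each. The labels do not say how many animals or vials supplied the wells, so the spread between arrays is a spread between wells.

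Complex I (NADH dehydrogenase), complex II (succinate dehydrogenase) and complex III (the cytochrome bc complex) pass electrons through coenzyme Q and cytochrome c to complex IV (cytochrome c oxidase). Complexes I, III and IV pump protons, and ATP synthase uses the returning protons to make ATP. In liver the chain reoxidises the NADH and reduced flavoproteins that fatty acid oxidation produces, and phthalates with branched or straight octyl chains are known activators of the fatty acid receptor PPARα in rodents. Nuclear genes of the chain are classically linked to the transcription factors NRF1, GABP, which binds an ETS motif, YY1 and the estrogen-related receptors.

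Promoter windows of 300 bases, 250 before to 50 after the annotated start, were matched from RefSeq (build GRCr8) for 78 of the 87 genes. The letters searched, on both strands, were GCGCANGCG for NRF1, CCGGAAG for the ETS motif, AAGATGGC for YY1, TCAAGGTCA for the estrogen-related receptors and GGTCANAGG for a direct repeat of the kind PPARα binds. The NRF1 letters were in 24.4% of the 78 windows, against 5.8% of all 33469 windows in the table. ETS letters were in 28.2%, against 8.75%, and YY1 letters in 21.8%, against 3.17%. The estrogen-related receptor letters occurred in 2 windows (2.56%, against 0.433%), those of Atp5mc3 and Sdhd, and the direct-repeat letters in 1, that of Uqcrfs1 (1.28%, against 1.62%). At least 1 of the NRF1, ETS and YY1 motifs was present in 59% of the windows, against 15.7% of all windows. Of the 17 genes with YY1 letters, 14 had them on the coding strand, beginning from 1 base before to 40 bases after the start. This was so for 368 of the 1062 windows with YY1 letters in the whole table. Those of Ndufa4l2 and Uqcrc1 began at -1. Shown next are the 120 bases before the start of 6 genes described later, as examples with NRF1 letters, with ETS letters or with no match, and matches are in capitals.
Uqcrc2, chr1:184599120-184599239, plus strand, with 2 ETS matches: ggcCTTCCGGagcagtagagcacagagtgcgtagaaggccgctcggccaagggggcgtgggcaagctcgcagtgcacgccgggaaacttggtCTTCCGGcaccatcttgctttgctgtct
Sdha, chr1:30764433-30764552, plus strand, with 2 NRF1 matches: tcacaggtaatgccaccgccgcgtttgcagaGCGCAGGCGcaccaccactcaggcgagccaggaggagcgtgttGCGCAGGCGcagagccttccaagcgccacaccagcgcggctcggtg
Sdhd, chr8:59850642-59850761, minus strand, with 1 ETS match: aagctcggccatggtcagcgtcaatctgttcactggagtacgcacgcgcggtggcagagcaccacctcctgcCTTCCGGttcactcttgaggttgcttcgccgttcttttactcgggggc
Ndufv3, chr20:9613666-9613785, plus strand, with 1 NRF1 match: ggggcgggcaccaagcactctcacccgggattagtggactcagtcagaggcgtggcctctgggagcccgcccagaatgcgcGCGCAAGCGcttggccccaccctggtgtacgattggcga
Ndufa5, chr4:53971236-53971355, minus strand, with 1 NRF1 match: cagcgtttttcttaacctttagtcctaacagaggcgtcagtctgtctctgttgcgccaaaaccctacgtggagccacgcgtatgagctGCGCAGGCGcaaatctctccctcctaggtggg
Atp5if1, chr5:150026678-150026797, minus strand, with 0 matches: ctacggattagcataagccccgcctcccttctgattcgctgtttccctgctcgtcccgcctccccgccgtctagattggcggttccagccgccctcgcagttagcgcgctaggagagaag

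The matches that lay at or just after the start are shown for 4 more genes with 10 bases on each side, because 3 of these genes (Ndufb8, Ndufs7 and Ndufb10) were higher in all 4 dose comparisons and Ndufaf8 was among the largest differences at 48 h.
Ndufb8, chr1:253362898-253362925, minus strand, YY1: ggagaaggtgAAGATGGCggcgtcccgg
Ndufs7, chr7:10110477-10110504, minus strand, YY1: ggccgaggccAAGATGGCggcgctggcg
Ndufaf8, chr10:105879900-105879927, plus strand, YY1: ggcagggcccAAGATGGCggcgcccaca
Ndufb10, chr10:14255948-14255976, minus strand, NRF1: ccgtctttctGCGCAGGCGtagaggtccc

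Their probe sets were among the brightest of the array. On the log2(signal + 1) scale the median of their 84 means over all arrays was 14.19, against 10.60 for all tested genes, and 80 of the 84 lay above that median. Array medians over all probe sets ran from 8.44 to 8.79, and arrays of a group correlated at 0.968 to 0.986. All 12 hepatocyte markers measured were above the filter, and albumin had a mean log2 signal of 15.96. In the dose comparisons 5, 5, 6 and 6 of these 12 were lower and 0 higher at 250 µM 24 h, 1000 µM 24 h, 250 µM 48 h and 1000 µM 48 h. Of all tested genes 11.0%, 11.2%, 26.0% and 18.3% were lower and 8.31%, 8.28%, 15.2% and 11.5% higher. Tat, a glucocorticoid-induced aminotransferase, was at -1.18 ± 0.07, -1.13 ± 0.07, -0.89 ± 0.07 and -0.91 ± 0.07 in the same order. Of the stellate cell markers, 5 of 10 passed the filter. Their summed signal was 10137 to 15552 in 24 h vehicle and 15594 to 16739 in 48 h vehicle but 6925 to 8844 in the treated groups, most of it Vim. Vim was lower in all 4 dose comparisons (-1.28, -1.19, -1.70 and -1.41), but Col1a1 was higher at 250 µM and 48 h (0.78 ± 0.21, limma adjusted p = 0.00373), where the median of the 5 was -0.04. The part of these markers in the results was not tested. In bulk RNA, fewer cells of a type and less RNA per cell cannot be told apart. For beta-actin, the signal of the control probe set at the 3′ end over that at the 5′ end, as log2, averaged 1.72 ± 0.49 (SD, n = 5) in 48 h vehicle, with arrays at 2.44, 1.74, 1.70, 1.04 and 1.66, against 1.14 ± 0.08 in 24 h vehicle and 1.15 ± 0.16 at 250 µM for 48 h (exact permutation test, two-sided, p = 0.0397 for each, adjusted p = 0.119 over 15 tests). A higher ratio is a usual sign of shorter RNA. The 48 h vehicle arrays enter every 48 h dose comparison below.

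The median over all 84 genes differed little between groups, and the 48 h vehicle arrays gave its lowest values. It was 14.10, 14.23, 14.26, 14.19 and 14.32 on the 24 h vehicle arrays and 14.19, 14.02, 14.02, 14.18 and 14.04 on the 48 h vehicle arrays. At 250 µM it was 14.19 to 14.33 at 24 h and 14.22 to 14.35 at 48 h, so that all 5 arrays at 250 µM and 48 h lay above all 5 of their vehicle. At 1000 µM it was 14.15 to 14.38 at 24 h and 14.18 to 14.33 at 48 h, overlapping the vehicle at both times. Among the 48 h vehicle arrays, the 2 with the highest medians were the array with the highest actin ratio (14.19 at a ratio of 2.44) and the array with the lowest (14.18 at a ratio of 1.04).

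**Figure D1:**
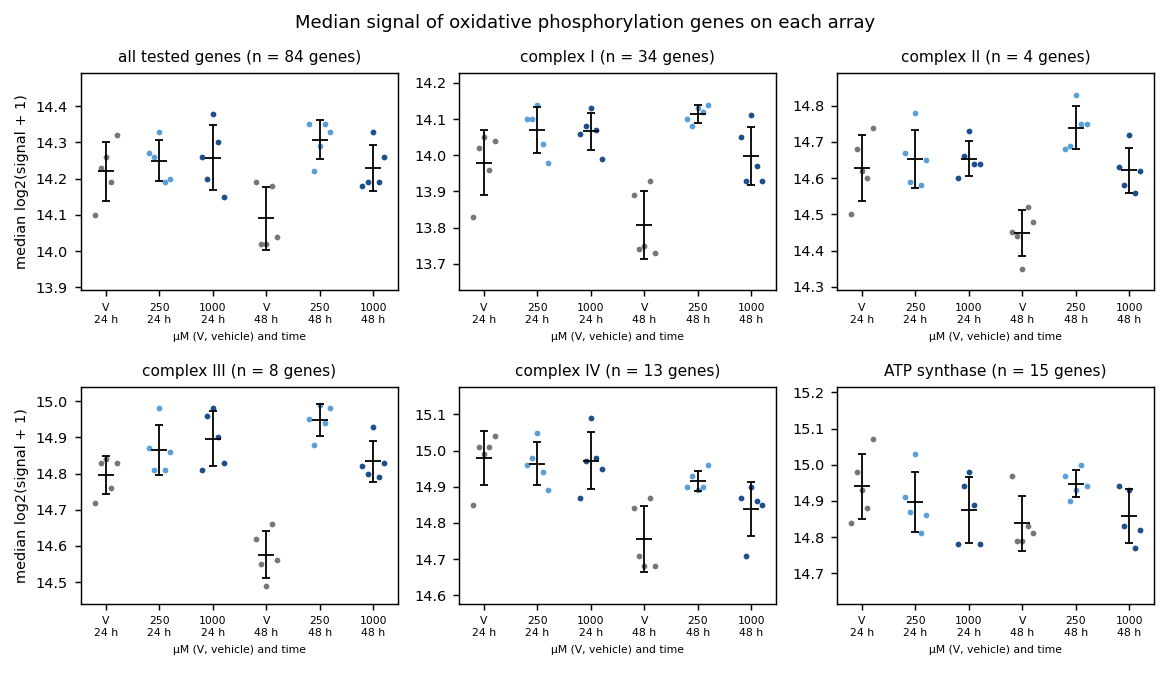
Median log2(signal + 1) on each array (points, 5 per group) over all 84 tested genes and over the genes of each complex, with mean and SD of the 5 arrays (bars), by dose (V, vehicle) and time. The 48 h vehicle group has the lowest mean for all 84 genes together (arrays at 14.02 to 14.19) and the 250 µM arrays at 48 h lie above them (14.22 to 14.35).

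After 24 h these genes were called higher about as often as all tested genes. At 250 µM, 7 of 84 were higher, against 8.31% of all tested genes, and 1 was lower, against 11.0%. At 1000 µM, 8 were higher (8.28% of all genes) and 1 lower (11.2%). Of 973 other tested genes about as bright (mean log2 signal of at least 13.53, the lower quartile of the 84), 19.5% and 19.2% were higher and 16.4% and 16% lower. The median difference of the 84 genes was 0.03 at both doses, against -0.03 for all genes. All treated arrays lay above all vehicle arrays for 4 of the 84 genes at 250 µM and 3 at 1000 µM. Of all 10528 tested genes this held for 710 and 664. Both doses share the vehicle arrays, and the overlap of their calls over all tested genes was not counted. The genes called higher at both doses were the same 7: Ndufb8, Ndufa7, Ndufs7, Ndufb10, Ndufc1, Ndufab1 and Uqcrc2, and Ndufv3 was added at 1000 µM (0.19). The Ndufv3 call was lost under quantile normalization (adjusted p = 0.0614), with all its probe sets averaged (a difference of 0.06, adjusted p = 0.662), and without any one of vehicle replicates 1 to 4 or 1000 µM replicates 1, 2, 3 and 5 (0.0524 to 0.0905). All the genes called higher belonged to complex I or III, and no difference between complexes was tested. None of the tested subunits of complex II, complex IV or ATP synthase was called at 24 h by limma at either dose.

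Ndufb8, a membrane-arm subunit of complex I often used as its marker on blots, had the largest rise. Its log2 signal was 11.49, 11.39, 11.51, 11.51 and 11.51 in 24 h vehicle and 11.86, 11.92, 11.83, 12.21 and 11.68 at 250 µM. At 1000 µM the 5 arrays read 11.91, 11.82, 11.74, 12.09 and 11.67. All 10 treated arrays lay above all 5 vehicle arrays, with log2 differences of 0.42 ± 0.10 (SE; limma adjusted p = 0.00209) and 0.36 ± 0.10 (adjusted p = 0.00796). Ndufa7, a peripheral-arm subunit, read 13.72 to 13.88 in vehicle and 13.92 to 14.08 at 250 µM, a difference of 0.20 ± 0.05 (limma adjusted p = 0.00421), and 13.81 to 14.08 at 1000 µM, a difference of 0.19 ± 0.05. Ndufs7, a core subunit that carries the last iron-sulfur cluster before coenzyme Q, read 13.66, 13.93, 13.86, 13.88 and 13.99 in vehicle and 14.19, 14.09, 14.12, 14.08 and 14.02 at 1000 µM, where the groups did not overlap (0.23 ± 0.06, limma adjusted p = 0.00673). At 250 µM it differed by 0.19 ± 0.06. Uqcrc2, a core protein of complex III, was called at both doses (0.18 ± 0.06 and 0.20 ± 0.06), but its arrays overlapped those of vehicle. The 250 µM call was lost without any one of vehicle replicates 1 to 4 or 250 µM replicates 3 and 5 (adjusted p of 0.0528 to 0.161), and the 1000 µM call without vehicle replicate 1 (0.0907) or 1000 µM replicate 2 (0.0903). A second Uqcrc2 probe set differed by 0.18 and 0.09.

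**Figure D2:**
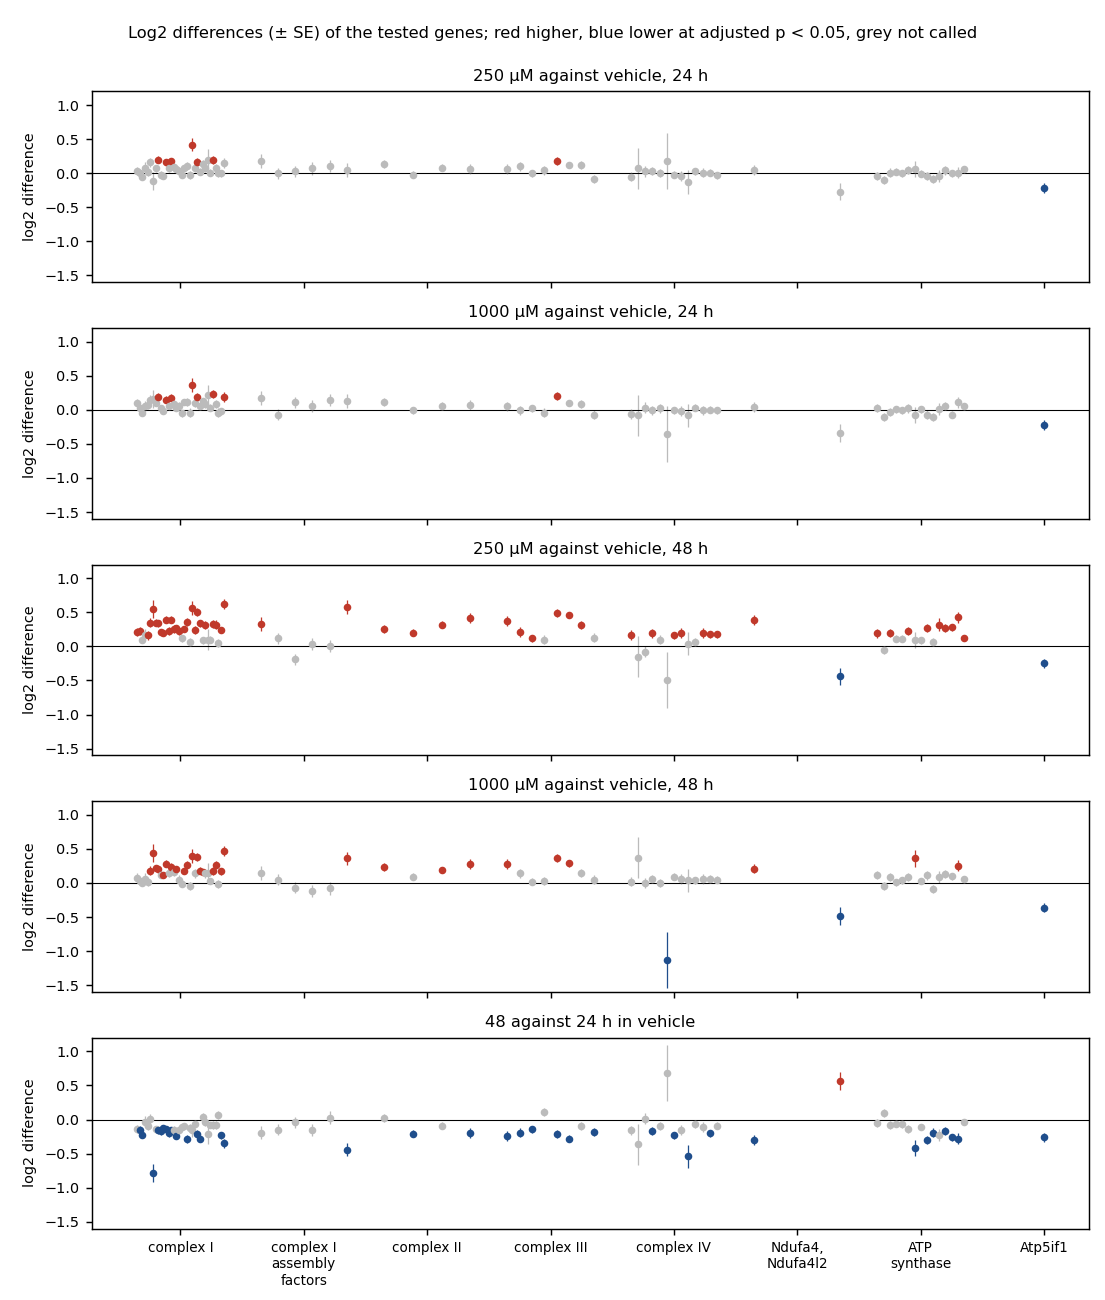
Log2 difference (points, 1 per gene in alphabetical order within a complex) with its SE (bars) for 83 of the 84 tested genes (Cox6c-ps1, a pseudogene symbol, is not drawn) in the 4 dose comparisons and in vehicle over time, with genes called higher in red, called lower in blue and not called in grey. Red points are few at 24 h (7 and 8), spread over every complex at 250 µM and 48 h (55), and fewer at 1000 µM and 48 h (28), while in vehicle 36 genes are blue.

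At 48 h most of these genes were higher at 250 µM than in vehicle, each by a small amount. Of 84, 55 were higher, against 15.2% of all tested genes, and 2 were lower, against 26.0%. The median difference was 0.20, a fold of 1.15, against -0.07 for all genes. For 46 of the 84 genes all treated arrays lay above all vehicle arrays, and for 2 below. Of all 10528 tested genes this held for 1075 and 1587. Other genes as bright as these also moved upward more than the rest: of the 973 other bright genes, 41% were higher and 17.1% lower, with a median of 0.09. Scaling set the size of the shift: centring each array on its median over the tested genes moved the median of all genes from -0.07 to 0.08 and that of the 84 genes from 0.20 to 0.36, with 72 higher and 0 lower, and quantile normalization gave 0.11, with 41 higher and 4 lower. With vehicle reduced to its 1 array with a low actin ratio, which also leaves 1 vehicle replicate in place of 5, the median was 0.12 and fewer were called.

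The rise at 250 µM and 48 h covered every complex. In complex I 26 of 34 subunits were higher and 0 lower, with a median of 0.25. Complex II had 4 of 4 higher (median 0.29), complex III 6 of 8 (median 0.26), complex IV 7 of the 13 tested (median 0.16) and ATP synthase 9 of 15 (median 0.19). Of the 6 assembly factors, Ndufaf8 and Ndufaf1 were higher. No difference between complexes was tested.

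Within complex I the largest difference was that of Ndufv3, a small accessory subunit of the NADH-oxidising module. Its log2 signal was 12.79, 12.81, 12.90, 13.12 and 12.83 in vehicle and 13.55, 13.50, 13.43, 13.55 and 13.52 at 250 µM. The groups did not overlap, and the difference was 0.62 ± 0.07 (SE; limma adjusted p = 2.9e-09). A second, dimmer Ndufv3 probe set differed by 0.30. Ndufb8 read 11.09, 11.42, 11.19, 11.67 and 11.22 in vehicle and 11.78, 12.10, 11.88, 11.91 and 11.71 at 250 µM, all above vehicle (0.56 ± 0.10, limma adjusted p = 3.5e-05). Ndufa5, an accessory subunit of the arm that reaches into the matrix, read 12.58, 13.03, 12.79, 13.05 and 12.73 in vehicle and 13.40, 13.25, 13.33, 13.45 and 13.49 at 250 µM (0.55 ± 0.13, limma adjusted p = 6.8e-04). The membrane-arm subunit Ndufc1 read 14.22, 14.13, 14.09, 14.43 and 14.26 in vehicle and 14.72, 14.72, 14.75, 14.67 and 14.79 at 250 µM (0.50 ± 0.06, limma adjusted p = 1.0e-08). For each of these 3 subunits every treated array was above every vehicle array.

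Of the 6 core subunits of complex I tested, 4 were higher at 250 µM, Ndufs7 (0.33 ± 0.06), Ndufs8 (0.32 ± 0.06), Ndufs3 (0.31 ± 0.06) and Ndufv2 (0.24 ± 0.05), each with all treated arrays above vehicle. Ndufv1 and Ndufs1 were not called. Ndufv1, the flavin-bearing core subunit that binds NADH, read 13.75, 13.46, 13.51, 13.30 and 13.41 in vehicle and 13.59, 13.50, 13.51, 13.57 and 13.50 at 250 µM, a difference of 0.05 ± 0.06 (limma adjusted p = 0.548) that was called with array medians centred (0.20, adjusted p = 0.00833) and with the actin ratio added to the fit (0.22, adjusted p = 0.00584). Ndufs1, the largest iron-sulfur subunit, read 12.98, 13.11, 13.01, 12.89 and 12.93 in vehicle and 13.12, 13.09, 13.11, 12.98 and 13.07 at 250 µM (0.09 ± 0.05, limma adjusted p = 0.202). Both overlapped vehicle. Ndufaf8, an assembly factor for the complex, read 11.42, 10.93, 11.38, 11.68 and 11.57 in vehicle and 11.89, 12.01, 12.06, 11.92 and 12.01 at 250 µM, without overlap (0.58 ± 0.10, limma adjusted p = 9.0e-06).

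Complex II, which also serves the citrate cycle, had all 4 subunits higher at 250 µM and 48 h. Sdhd, a membrane anchor, read 14.46, 14.61, 14.39, 14.80 and 14.56 in vehicle and 14.92, 14.97, 15.00, 14.99 and 15.04 at 250 µM (0.42 ± 0.07, limma adjusted p = 8.3e-06), and its second probe set differed by 0.46. The other anchor, Sdhc, read 14.67, 14.52, 14.46, 14.56 and 14.62 in vehicle and 14.80, 14.83, 15.00, 14.94 and 14.86 when treated (0.32 ± 0.05). Sdha, the flavoprotein that oxidises succinate, read 13.67, 13.69, 13.67, 13.61 and 13.68 in vehicle and 13.89, 13.88, 13.92, 13.95 and 13.92 at 250 µM (0.25 ± 0.06, limma adjusted p = 5.9e-04). Sdhb, the iron-sulfur subunit, differed by 0.20 ± 0.05, from 14.30 to 14.48 in vehicle to 14.54 to 14.66 at 250 µM. In none of the 4 did a 250 µM array reach into the vehicle range. Over time in vehicle, Sdhb was lower (-0.21 ± 0.05, limma adjusted p = 0.00177), and Sdhc was not called (-0.09 ± 0.05, limma adjusted p = 0.237). Sdhd was called lower (-0.20 ± 0.07, limma adjusted p = 0.0279), a call lost with the actin ratio added to the fit (adjusted p = 0.616) and without any one of 24 h replicates 3 to 5 or 48 h replicates 1 and 3 (0.0561 to 0.108). Sdha was not called, at 13.64 ± 0.15 at 24 h and 13.67 ± 0.03 at 48 h (SD, n = 5), a change of 0.02 ± 0.06 (limma adjusted p = 0.814).

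In complex III the Rieske iron-sulfur protein Uqcrfs1 read 14.54, 14.62, 14.45, 14.70 and 14.57 in vehicle and 14.97, 15.02, 15.07, 15.03 and 15.05 at 250 µM (0.46 ± 0.05, limma adjusted p = 9.1e-09). Uqcrc2 read 14.34, 14.42, 14.42, 14.56 and 14.56 in vehicle and 14.92, 14.89, 14.97, 14.98 and 14.96 at 250 µM (0.49 ± 0.06, limma adjusted p = 1.0e-07), with 0.97 from its second, dimmer probe set. Cyc1, the haem protein that hands electrons to cytochrome c, read 14.06, 13.94, 13.93, 13.96 and 13.83 in vehicle and 14.32, 14.26, 14.33, 14.27 and 14.41 at 250 µM (0.37 ± 0.07). These 3 did not overlap vehicle. Uqcrc1, the partner core protein of Uqcrc2, was not called: it read 14.41, 14.23, 14.11, 13.98 and 14.07 in vehicle and 14.28, 14.15, 14.28, 14.36 and 14.23 at 250 µM (0.10 ± 0.06, limma adjusted p = 0.158). It was called with array medians centred (0.26, adjusted p = 6.2e-04), with the actin ratio added to the fit (0.26, adjusted p = 7.9e-04) and with the 1 vehicle array of low ratio (0.28, adjusted p = 0.0119).

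Complex IV, counted without Ndufa4 and with the dim forms named below, had the smallest median of the 5 complexes. Cox4i1, the regulatory subunit found in most tissues, read 15.47, 15.33, 15.36, 15.52 and 15.38 in vehicle and 15.55, 15.53, 15.59, 15.64 and 15.59 at 250 µM (0.17 ± 0.07, limma adjusted p = 0.0492). That call was lost without vehicle replicate 2, 3 or 5 or any one of the 5 arrays at 250 µM (adjusted p of 0.0534 to 0.117), under quantile normalization (0.0525), without the filter (0.0724) and with the actin ratio added to the fit (0.157). Cox8a differed by 0.18 ± 0.05 (limma adjusted p = 0.00708), from 14.93 to 15.22 in vehicle to 15.15 to 15.30 at 250 µM, with overlap. Cox6a1, the liver form of its subunit, was not called (0.10 ± 0.06, limma adjusted p = 0.203): its arrays read 15.01 to 15.22 in vehicle and 15.10 to 15.37 at 250 µM, and centring array medians made it a call (0.26, adjusted p = 0.00694). The forms typical of muscle or of low oxygen were dim. Cox4i2 read 6.63 to 8.45 in 48 h vehicle and 6.66 to 7.94 at 250 µM, and Cox7a1 read 8.43 to 9.20 and 8.22 to 9.01, both without a call in any dose comparison. Cox8b did not pass the filter.

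In ATP synthase both called and uncalled subunits lay in the catalytic head. The catalytic subunit Atp5f1b read 15.30, 15.03, 14.98, 14.82 and 15.04 in vehicle and 14.97, 14.90, 15.01, 15.00 and 15.03 at 250 µM, a difference of -0.05 ± 0.06 (limma adjusted p = 0.556), and under quantile normalization it was called lower (-0.16, adjusted p = 0.00729). Its partner Atp5f1a read 14.65, 14.55, 14.53, 14.71 and 14.67 in vehicle and 14.74, 14.76, 14.85, 14.85 and 14.88 at 250 µM (0.19 ± 0.06, limma adjusted p = 0.00686). Atp5pf, a coupling factor of the peripheral stalk, had the largest rise of the enzyme. It read 13.88, 13.90, 13.90, 14.11 and 13.69 in vehicle and 14.46, 14.21, 14.21, 14.30 and 14.48 at 250 µM (0.43 ± 0.08, limma adjusted p = 5.6e-05). The arrays of Atp5f1a and Atp5pf did not overlap vehicle, and those of Atp5f1b did.

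**Figure D3:**
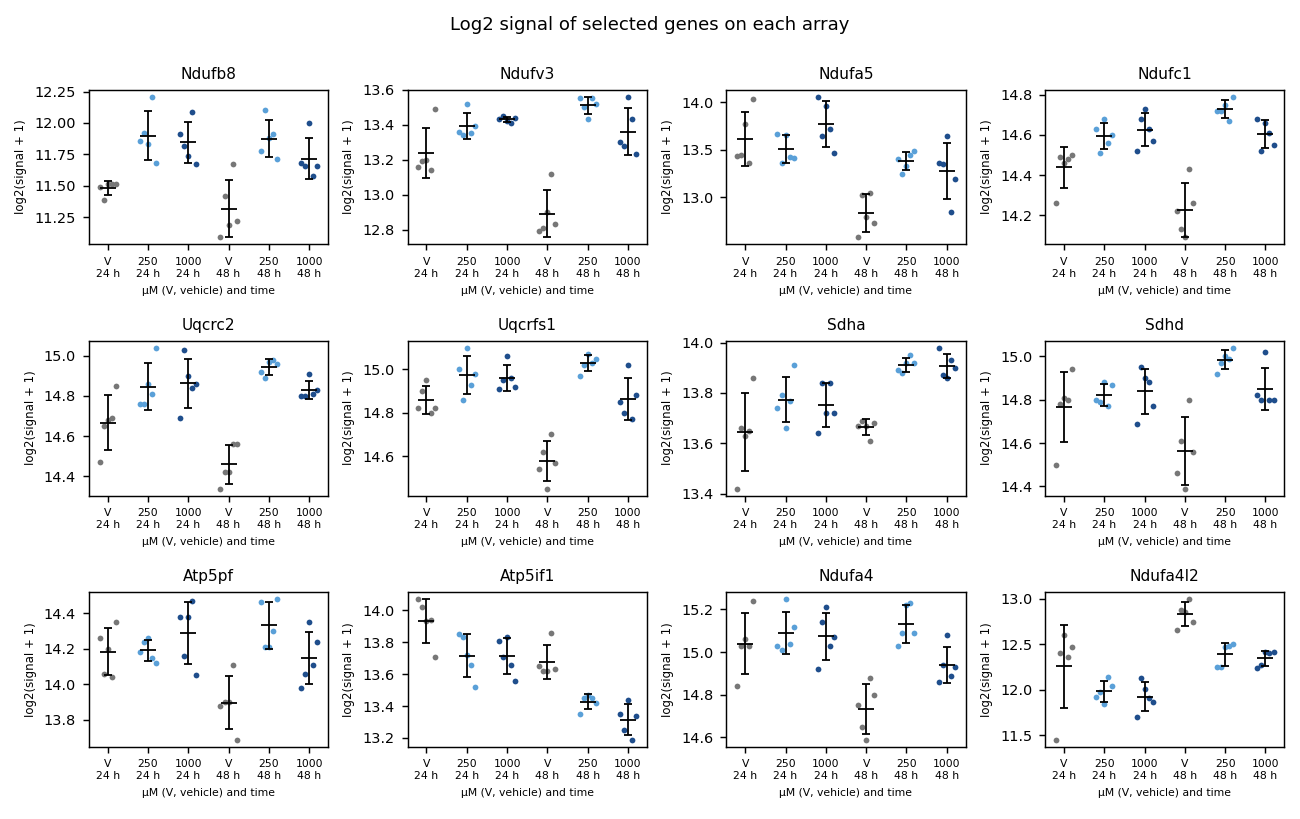
Log2(signal + 1) of 12 genes on each array (points, 5 per group) with mean and SD (bars), by dose (V, vehicle) and time. Ndufv3 rises from 12.79 to 13.12 in 48 h vehicle to 13.43 to 13.55 at 250 µM, Atp5if1 has lower means in both treated groups than in vehicle at each time, and Ndufa4 and Ndufa4l2 move in opposite directions at 48 h.

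At 1000 µM and 48 h fewer of these genes were called, again mostly higher. Of 84 genes, 28 were higher, against 11.5% of all tested genes, and 3 were lower, against 18.3%. The median difference was 0.11, against -0.04 for all genes. All treated arrays lay above all vehicle arrays for 13 of the 84 genes, and below for 2. Of all 10528 tested genes this held for 784 and 1145. Among 973 bright genes outside the list, 27.9% were higher and 19.3% lower. Of the 28, 26 were also called higher at 250 µM. These 2 comparisons share the vehicle arrays, and the overlap over all tested genes was not counted. By complex, 18 of 34 were higher in complex I, 3 of 4 in complex II and 3 of 8 in complex III. In ATP synthase 2 of 15 were higher, and in complex IV 0 of 13. Ndufa4, now placed in complex IV but counted apart here, was also called higher. With array medians centred, 45 of the 84 were higher and 2 lower. With vehicle reduced to its 1 array with a low actin ratio, 0 were higher and 1 lower, and the median was 0.03.

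The largest rises at 1000 µM were those of complex I subunits. Ndufv3 read 13.30, 13.28, 13.56, 13.43 and 13.23 (0.47 ± 0.07, limma adjusted p = 8.6e-07; 0.09 from its second probe set) and Ndufc1 14.68, 14.52, 14.66, 14.61 and 14.55 (0.38 ± 0.06, limma adjusted p = 3.2e-06), both above every vehicle array. Ndufa5 read 13.36, 13.35, 13.65, 12.85 and 13.19 (0.44 ± 0.13), and Ndufb8 read 11.68, 11.66, 12.00, 11.58 and 11.66 (0.40 ± 0.10), and both overlapped vehicle. With the actin ratio added to the fit as a covariate, their adjusted p rose to 0.0766 and 0.111. Sdha read 13.98, 13.87, 13.86, 13.93 and 13.90 (0.24 ± 0.06), above every vehicle array and next to its 250 µM value of 13.91 ± 0.03. Atp5me, a membrane subunit of ATP synthase, was called higher at 1000 µM (0.36 ± 0.12, limma adjusted p = 0.0202), with arrays at 12.52 to 13.15 in vehicle and 13.14 to 13.37 at 1000 µM. At 250 µM it differed by 0.09 ± 0.12 (limma adjusted p = 0.564). A second, dimmer Atp5me probe set differed by 0.11 at 1000 µM and 0.20 at 250 µM. Cox6a2, the muscle form of Cox6a1, was called lower (-1.13 ± 0.41, limma adjusted p = 0.0345). Its signal was near the filter limit, at 8.16, 8.42, 8.39, 9.19 and 8.56 in vehicle and 5.47, 7.86, 7.87, 7.71 and 8.18 at 1000 µM, and without the array at 5.47 the difference was -0.64 with an adjusted p of 0.181. The call was also lost without vehicle replicate 2, 4 or 5 (adjusted p = 0.05, 0.0836 and 0.0567).

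The doses themselves were compared directly. At 24 h 0 of 84 genes differed between 1000 and 250 µM (0.0190% of all genes did), and their differences split into 41 above and 43 below 0. At 48 h 0 of 84 were called (0.0665% of all genes), although 78 of 84 were lower at 1000 µM, with a median of -0.11 against 0.02 for all genes, of which 4682 of 10528 were lower, and -0.08 for the 973 other bright genes. Ndufa4 can serve as an example: it read 15.03 to 15.23 at 250 µM and 14.86 to 15.08 at 1000 µM, a difference of -0.19 ± 0.07 (limma adjusted p = 0.253).

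Ndufa4 and its paralog Ndufa4l2 moved in opposite directions at 48 h. Ndufa4, first counted with complex I and now placed in complex IV, read 14.75, 14.65, 14.59, 14.88 and 14.80 in vehicle and 15.03, 15.09, 15.22, 15.23 and 15.09 at 250 µM (0.39 ± 0.07, limma adjusted p = 1.2e-05). At 1000 µM it read 14.86, 14.94, 15.08, 14.89 and 14.93 (0.21 ± 0.07, limma adjusted p = 0.0175), a call lost with the actin ratio added to the fit (adjusted p = 0.0979) and without vehicle replicate 2 or 3 or 1000 µM replicate 3 (0.0521, 0.0681 and 0.067). Ndufa4l2, a paralog induced by low oxygen, read 12.66, 12.88, 12.86, 13.00 and 12.74 in vehicle, 12.25, 12.25, 12.47, 12.48 and 12.50 at 250 µM and 12.24, 12.27, 12.41, 12.40 and 12.41 at 1000 µM. All 10 treated arrays were below the vehicle arrays, with differences of -0.44 ± 0.13 (limma adjusted p = 0.00566) and -0.48 ± 0.13 (limma adjusted p = 0.00378). With array medians centred, the first became -0.28 with an adjusted p of 0.0958. At 24 h Ndufa4l2 was not called (-0.27 ± 0.13 and -0.34 ± 0.13, limma adjusted p = 0.14 and 0.0595). Its 24 h vehicle arrays read 11.45, 12.40, 12.60, 12.36 and 12.47, and without the first of these the differences were -0.48 and -0.54 with adjusted p of 3.1e-05 and 5.2e-06. The 1000 µM difference also passed without 1000 µM replicate 2 (adjusted p = 0.0403).

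Atp5if1, which blocks ATP synthase from running backwards and consuming ATP, was the only one of the 84 called lower in all 4 dose comparisons. It read 14.07, 14.02, 13.93, 13.94 and 13.71 in 24 h vehicle, 13.85, 13.83, 13.72, 13.66 and 13.52 at 250 µM and 13.81, 13.71, 13.83, 13.66 and 13.56 at 1000 µM. These groups overlapped, and the differences were -0.22 ± 0.07 (limma adjusted p = 0.0198) and -0.22 ± 0.07 (limma adjusted p = 0.0178). At 48 h it read 13.65, 13.62, 13.62, 13.86 and 13.63 in vehicle, 13.35, 13.45, 13.47, 13.45 and 13.42 at 250 µM and 13.35, 13.25, 13.44, 13.19 and 13.34 at 1000 µM. All treated arrays were below all vehicle arrays (-0.25 ± 0.07, limma adjusted p = 0.0036, and -0.36 ± 0.07, limma adjusted p = 7.8e-05). With array medians centred, the 24 h calls and the 250 µM call at 48 h were lost (adjusted p = 0.134, 0.146 and 0.349). The 24 h calls were also lost without vehicle replicate 1 or 2, with adjusted p of 0.0678 and 0.0595 at 250 µM and 0.0621 and 0.0531 at 1000 µM, and without 250 µM replicate 4 or 5 (0.0504 and 0.0894) or 1000 µM replicate 5 (0.0692). The other Atp5if1 probe sets, both dimmer, gave -0.05 and -0.38 at 250 µM and 48 h, and -0.12 and -0.13 at 1000 µM. At 24 h, in the same order, they gave -0.05 and -0.36 at 250 µM and -0.04 and -0.35 at 1000 µM.

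In vehicle alone, 36 of the 84 genes fell between 24 and 48 h, against 11.7% of all tested genes, and 1, Ndufa4l2, was higher, against 16.4%. The median difference was -0.15, against 0.02 for all genes and -0.10 for 973 other bright genes, of which 32% were lower. By complex, 15 of 34 complex I subunits were lower, 2 of 4 of complex II, 6 of 8 of complex III, 4 of 13 of complex IV and 6 of 15 of ATP synthase. Ndufa4, counted apart, was lower too (-0.30 ± 0.07). The comparison sets the 48 h vehicle arrays of raised actin ratio against 24 h arrays without it. With that ratio added to the fit 15 were lower and 1 higher, with the same median of -0.15. With the 1 array of low ratio the median was -0.06. Markers of other kinds moved in the same comparison. Of 7 liver endothelial markers only 2 passed the filter, Lyve1 and Kdr, both dim (mean log2 signals of 8.08 and 8.67). Both were lower (-0.83 ± 0.20 and -0.78 ± 0.27). Of 12 hepatocyte markers 4 were lower, with Cyp2e1 at -0.79 ± 0.10, and 0 higher. Of 7 Kupffer cell and leukocyte markers 2 were lower and 0 higher. The stellate cell marker Vim (0.37 ± 0.09) and the cholangiocyte marker Epcam (0.31 ± 0.05) were higher. The part of these markers in the result was not tested.

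Ndufa5 had the largest fall with time, from 13.44, 13.45, 13.77, 13.36 and 14.04 at 24 h to 12.58 to 13.05 at 48 h (-0.78 ± 0.13, limma adjusted p = 2.8e-05), without overlap. Next were Cox7a1 (-0.54 ± 0.17), from 8.91 to 9.47 down to 8.43 to 9.20, and Ndufaf8 (-0.44 ± 0.10), from 11.69 to 11.96 down to 10.93 to 11.68. Atp5me went from 12.98 to 13.38 down to 12.52 to 13.15 (-0.42 ± 0.12). Ndufa4l2 rose by 0.57 ± 0.13 (limma adjusted p = 9.8e-04), and all 48 h arrays were above all 24 h arrays.

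Under treatment fewer genes were called with time. At 250 µM 6 of 84 were higher at 48 than at 24 h (6.86% of all genes) and 3 lower (6.52%). At 1000 µM 2 were higher (9.91%) and 8 lower (8.11%), and quantile normalization made this 7 higher and 7 lower. Called or not, 68 of the 84 were below 0 at 1000 µM, against 5124 of 10528 genes. Their median there was -0.08, against 0.01 for all genes and -0.06 for the 973 other bright genes. At 250 µM 56 were above 0, with a median of 0.04, against -0.02 for all genes and 0.00 for the bright ones. Ndufa4l2 rose in both treated arms too (0.41 ± 0.13 and 0.43 ± 0.13), and Atp5if1 fell in both (-0.29 ± 0.07 and -0.40 ± 0.07) as it did in vehicle (-0.26 ± 0.07). Ndufa5 fell at 1000 µM (-0.49 ± 0.13, limma adjusted p = 0.00535) and was not called at 250 µM (-0.12 ± 0.13, limma adjusted p = 0.608). Among the risers at 250 µM, Ndufa3, Ndufs3 and Atp5f1a differed by 0.21, 0.19 and 0.18, and Uqcrc1 rose by 0.18 at both doses. Several of these calls were lost when 1 array was left out. This was so for Ndufa4l2 at 250 µM without any one of 24 h replicates 1 to 3 or 48 h replicates 3 to 5 (adjusted p of 0.0519 to 0.0699) and for Ndufs3 without 24 h replicate 1, 2 or 4 or 48 h replicate 5 (0.0572 to 0.13). It was so for Ndufa3 without 24 h replicate 2, 4 or 5 or any 48 h array (0.0507 to 0.127), for Atp5f1a without 24 h replicate 1, 2 or 4 or any one of 48 h replicates 3 to 5 (0.0732 to 0.111), and for Uqcrc1 at 1000 µM without 24 h replicate 4 or 48 h replicate 5 (0.0678 and 0.0679).

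The difference between the 48 h and the 24 h effect was tested as an interaction. For 250 µM it was called for 21 of 84 genes, all toward a higher effect at 48 h (3.84% of all genes went that way), and for 0 toward a lower one (4.52%). The median was 0.17, against -0.05 for all genes. Of the 973 other bright genes, 13.7% were called higher and 3.91% lower, with a median of 0.10. The largest were Ndufa5 (0.65 ± 0.18, limma adjusted p = 0.0204), Ndufaf8 (0.53 ± 0.14, limma adjusted p = 0.0135), Ndufv3 (0.47 ± 0.09, limma adjusted p = 0.00192) and Atp5pf (0.42 ± 0.11, limma adjusted p = 0.0197). For 1000 µM limma called 0 of 84 (0.969% of all genes in either direction), with a median of 0.06. Of the 21 calls at 250 µM, 2 were left with the actin ratio added to the fit, with a median of 0.19. With the 1 vehicle array of low ratio the median was 0.09. Of the 84, 24 were called in none of the 4 dose comparisons without rescaling or covariate, a count not made over all tested genes. They included Ndufv1, Uqcrc1, Atp5f1b and Cox6a1, which were called under the alternatives given above, and Cox5a of complex IV.

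**Figure D4:**
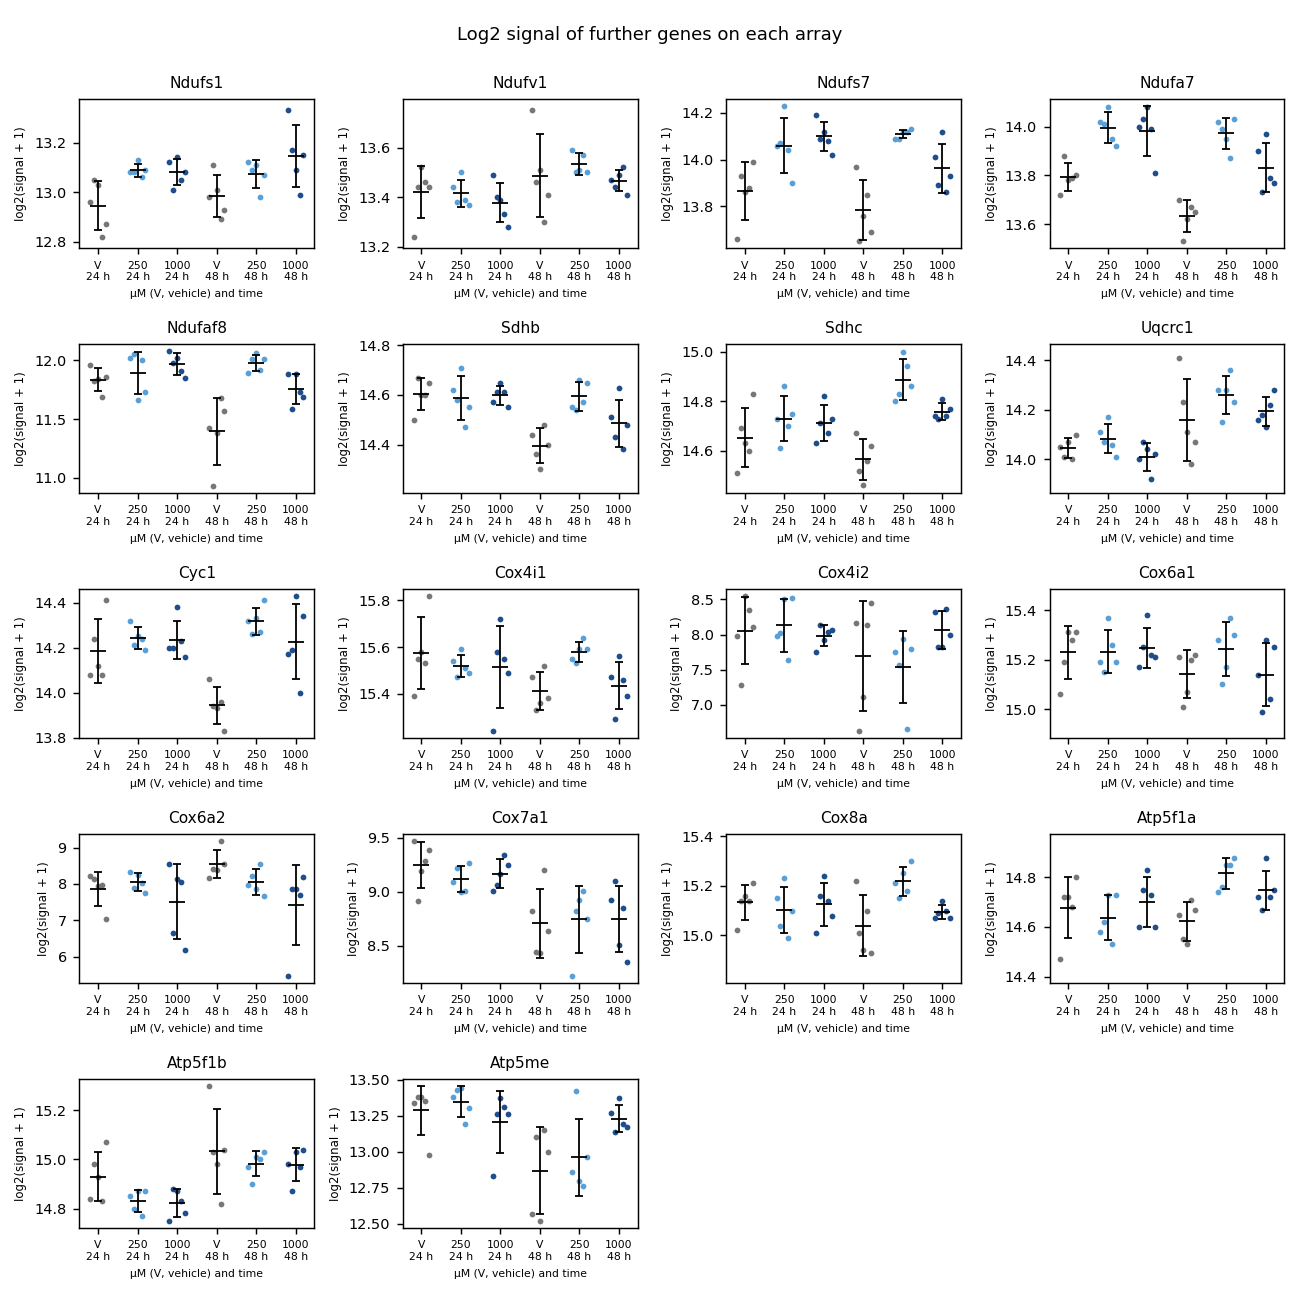
Log2(signal + 1) of 18 further genes on each array (points, 5 per group) with mean and SD (bars), by dose (V, vehicle) and time, each panel on its own axis. Ndufv1, Uqcrc1 and Atp5f1b overlap between all 3 groups at 48 h, while Sdhb and Cyc1 at 250 µM and 48 h lie above their vehicle arrays.

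The share of promoter windows with motifs is given next for genes that rose and genes that did not. Of the genes higher at 250 µM and 48 h, 49 had a promoter window, and 61.2% of these held the NRF1, ETS or YY1 letters. Among the other 26 tested genes with a window the share was 61.5%. By motif the shares were 22.4% against 30.8% for NRF1, 32.7% against 23.1% for ETS and 22.4% against 23.1% for YY1, and the estrogen-related receptor letters were in 2 of 49 and 0 of 26. These are descriptions of windows, with no test.

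Genes that feed or build the chain moved by different amounts. Reference targets of PPARα were higher in every dose comparison in 12 of 13 cases, with medians of 2.05, 1.89, 1.93 and 2.06 at 250 µM 24 h, 1000 µM 24 h, 250 µM 48 h and 1000 µM 48 h, against 0.03, 0.03, 0.20 and 0.11 for the 84 genes. Enzymes that deliver electrons to coenzyme Q without complex I were higher in 5, 5, 6 and 5 of 8 cases and lower in 2 of 8 in each. Over all tested genes 8.31%, 8.28%, 15.2% and 11.5% were higher and 11.0%, 11.2%, 26.0% and 18.3% lower. Gpd2, the mitochondrial glycerol phosphate dehydrogenase, rose by 2.07 ± 0.13, 1.82 ± 0.13, 1.93 ± 0.13 and 1.79 ± 0.13 in that order (limma adjusted p = 2.1e-14, 6.6e-13, 7.8e-14 and 8.2e-13). Etfdh, the oxidoreductase through which fatty acid oxidation reaches coenzyme Q, rose by 0.60, 0.65, 0.78 and 0.62, each ± 0.06. Prodh, proline dehydrogenase, fell by 0.90, 0.85, 1.24 and 1.06 on the log2 scale, and Sqor, which oxidises sulfide, fell by 0.39, 0.37, 0.43 and 0.37.

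Assembly factors outside the name rule had more calls at 48 h than at 24 h, as all genes did. At 24 h 3 and 4 of 43 were higher (8.31% and 8.28% of all genes) and 0 lower (11.0% and 11.2%). At 48 h 17 and 10 were higher (15.2% and 11.5% of all genes) and 1 was lower (26.0% and 18.3%), Bcs1l at both doses. Sdhaf1, which helps insert the iron-sulfur clusters of complex II, rose by 0.35 ± 0.08 and 0.42 ± 0.08 at 24 h and by 0.52 ± 0.08 and 0.49 ± 0.08 at 48 h. Uqcc1, an assembly factor of complex III, rose by 0.56 ± 0.08 and 0.43 ± 0.08 at 48 h. In vehicle over time 13 of 43 were lower (11.7% of all genes) and 3 higher (16.4%). Genes of coenzyme Q synthesis, with Hccs of cytochrome c synthesis, were higher in 2, 3, 5 and 4 of 13 cases. They were lower in 2, 1, 2 and 2, against the dose comparison shares of all genes given above. None of the 13 encoded cytochrome c itself. Coq3, a methyltransferase of coenzyme Q synthesis, rose by 0.46, 0.52, 0.68 and 0.59, each ± 0.07, and the kinase-like Coq8b fell by 0.42, 0.25, 0.56 and 0.42.

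Citrate cycle genes went both ways, with 4, 5, 6 and 7 of 12 higher and 1, 1, 4 and 3 lower. The shares of all genes were 8.31%, 8.28%, 15.2% and 11.5% higher and 11.0%, 11.2%, 26.0% and 18.3% lower. Suclg1, of succinyl-CoA ligase, rose by 0.34, 0.37, 0.57 and 0.51, each ± 0.04, and Idh2 fell by 0.43, 0.35, 0.28 and 0.26. Among 26 regulators of mitochondrial biogenesis and mitochondrial DNA, 5, 4, 6 and 6 were higher and 3, 3, 7 and 3 lower. The counts lower were close to the shares of all genes at 24 h and at 250 µM and 48 h. Tfb2m and Tfam, which start transcription of the mitochondrial genome, were higher in all 4 comparisons, Tfb2m by 0.32, 0.38, 0.56 and 0.45 and Tfam by 0.25, 0.20, 0.41 and 0.28, each ± 0.05. Polg2, an accessory subunit of the mitochondrial DNA polymerase, fell by 0.43, 0.48, 0.34 and 0.40. Of the factors whose motifs were searched, Nrf1 was lower at 250 µM and 48 h (-0.98 ± 0.28, limma adjusted p = 0.00482), Yy1 at both doses at 48 h (-0.18 ± 0.05 and -0.20 ± 0.05), and Esrra was higher at 250 µM and 24 h (0.53 ± 0.15, limma adjusted p = 0.0114). Of the GABP subunits, Gabpa was not called, with differences of 0.04 to 0.19, and Gabpb1 was lower at 250 µM and 48 h (-0.29 ± 0.10, limma adjusted p = 0.0158). Ppara, which encodes PPARα, was higher at 1000 µM and 48 h (1.93 ± 0.55, limma adjusted p = 0.00719) and was not called at 250 µM and 48 h (0.96 ± 0.55, limma adjusted p = 0.167).

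**Figure D5:**
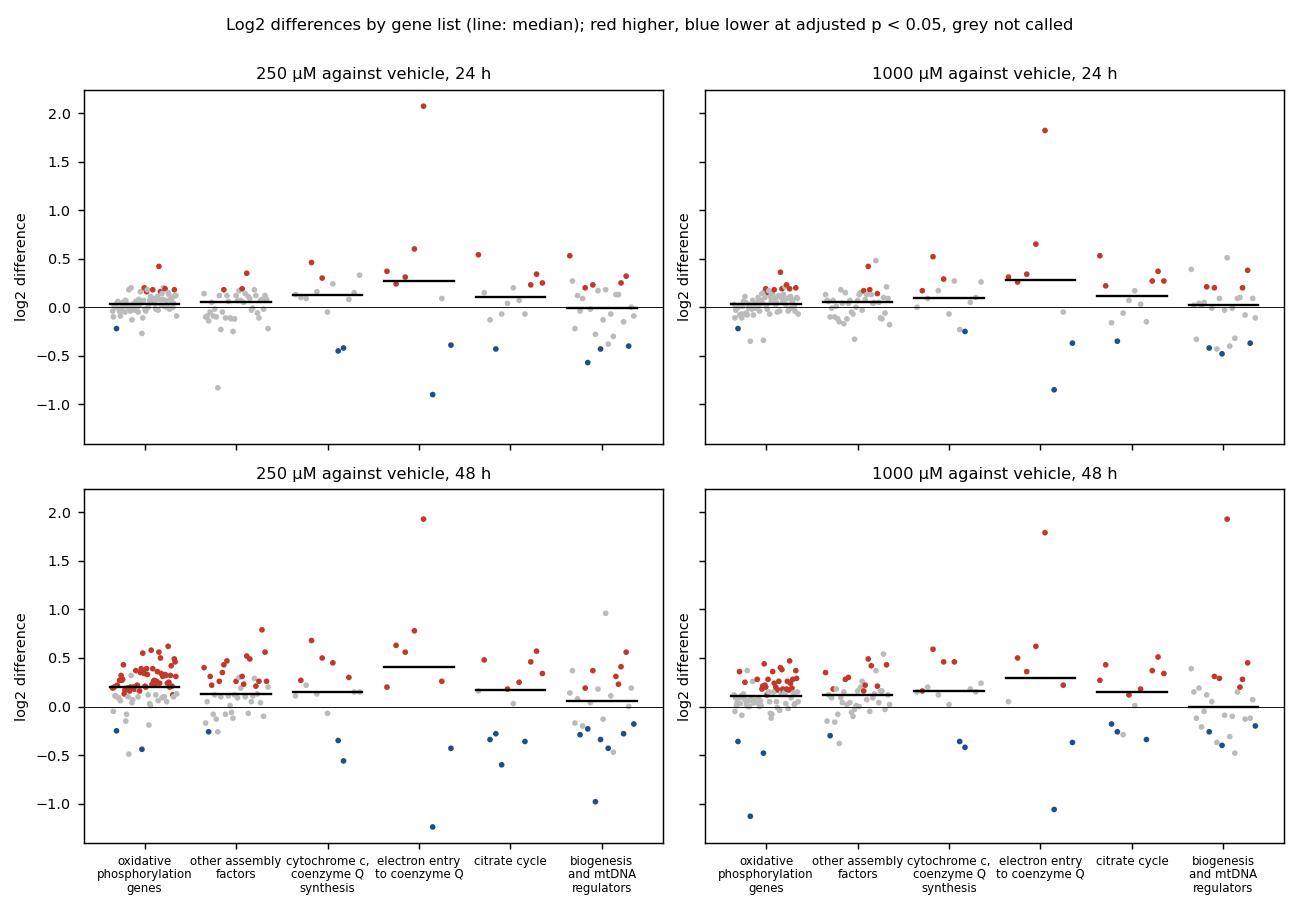
Log2 difference of each gene (points; red called higher, blue called lower, grey not called) and the median of the list (line) for the 84 oxidative phosphorylation genes and 5 neighbouring lists in the 4 dose comparisons. The 84 genes lie close to 0 in each panel (medians 0.03, 0.03, 0.20 and 0.11), and Gpd2 stands at the top of the electron entry list (1.79 to 2.07).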

How the data were processed

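Total RNA from 30 wells was hybridised to 1-colour Affymetrix rat arrays, 1 array per well. The deposited table holds 1 intensity per probe set and array, which the authors made with MAS5 per the submitters' processing notes (version: not given in the sources used here). On every array, the trimmed mean intensity, without the 2% at each end, was 1500.6 to 1500.7. Intensities were not rescaled, and log2(intensity + 1) was tested. Control probe sets and the dimmest 40% of probe sets were left out. Each gene was represented by its brightest probe set with 1 symbol. 7 probe sets with several symbols (Atp5mc1, Cox7a2, Atp5mc2, a second Cox5a, Uqcrb, Ndufs5 and Ndufa10) were not used. Symbols are those of the platform annotation.

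limma 3.58.1 in R 4.3.3 fitted 6 group means over 30 arrays (24 residual degrees of freedom) with eBayes and a mean-variance trend. The 11 comparisons were each adjusted over 10528 genes (Benjamini-Hochberg), with a threshold of 0.05. Precision is limited by 5 arrays per group. The fit was also run on simulated data with independent noise for each gene, which hold no shift shared by the genes of an array. Alternatives covered scaling, pseudocount, filter, probe sets, variance model, the actin ratio and single arrays. Named genes are, in each comparison, up to 4 called members of largest rise and fall, a fixed set of core and isoform genes, and from each other list up to 3 called genes of smallest p per direction. Other members named were chosen after their values were seen. The text gives arrays of the groups compared, and the plots show the rest. The members and the lists were chosen with earlier results of these data known. Promoter windows came from the RefSeq table for build GRCr8. Overlapping windows on opposite strands read alike in all 1408 pairs.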

Additional observations from a re-analysis of the deposited data

Results flagged for a closer look

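Some arrays stood apart from the other 4 of their group (Dixon's test at the 95% level). This was so in 16 of 240 checks, and chance gives about 1 in 20. For medians over a complex these were 14.93 for complex III at 1000 µM and 48 h (replicate 3), 14.85 for complex IV in 24 h vehicle (replicate 1) and 14.97 for ATP synthase in 48 h vehicle (replicate 1). Among 24 h vehicle arrays, Ndufa4l2 read 11.45 and Ndufc1 14.26 on replicate 1, Ndufb8 read 11.39 on replicate 2, and Atp5me read 12.98, Cox6a2 7.05 and Ndufv3 13.49 on replicate 5. Among 48 h vehicle arrays, Atp5if1 read 13.86 and Sdha 13.61 on replicate 4. At 1000 µM, Atp5me read 12.83 on replicate 1 at 24 h. At 48 h and 1000 µM, Cox6a2 read 5.47 on replicate 1, and Ndufb8 read 12.00 and Sdhd 15.02 on replicate 3. Ndufs3 read 14.06 on replicate 5 at 250 µM and 48 h.

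For 21 genes the effect of 250 µM differed between 48 and 24 h by the interaction test in limma. On the log2 scale the differences were 0.65 for Ndufa5, 0.53 for Ndufaf8, 0.47 for Ndufv3, 0.42 for Atp5pf and 0.36 for Sdhd. They were 0.34 for Ndufc1, Ndufa4 and Uqcrfs1, 0.32 for Cyc1 and Ndufc2, and 0.31 for Uqcrc2 and Atp5mg. Smaller ones were 0.29 for Ndufa6, 0.28 for Atp5pd, 0.25 for Ndufb6 and Sdhc, 0.24 for Ndufv2 and Ndufa9, 0.23 for Ndufab1 and Ndufa8, and 0.21 for Sdhb. All of them use the 48 h vehicle arrays.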

How the results depend on the processing

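With the 48 h vehicle group reduced to its 1 array of low actin ratio, assumed to vary like the other groups, both the arrays used and their number change. Fewer of the 84 were called at both doses at 48 h, in vehicle over time and for the change of the 250 µM effect. At 1000 µM and 48 h the calls turned from mostly higher to lower. Fewer replicates lower the number of calls for any gene, so the counts are not given. The medians are given above, and Sdhd over time in vehicle turned to 0.03. With the actin ratio as a covariate, 16 were called in vehicle over time and 2 for the change of the 250 µM effect. Centring gave 47 at 1000 µM and 48 h, and 34 for the change of the 250 µM effect, and at 24 h made the split 9 higher to 0 lower at 250 µM and 10 to 0 at 1000 µM. Fitting only the groups compared gave 3 and 4 at 24 h and 22 in vehicle over time. Without the filter 5 were called over time at 250 µM, and without the variance trend 4 there and 6 at 1000 µM.

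Leaving out single arrays gave 4 (250 µM replicate 3) to 10 calls at 250 µM and 24 h, 5 (vehicle replicate 1) to 10 at 1000 µM and 24 h, 52 to 60 and 25 to 35 at 48 h, and 25 to 48 in vehicle over time. Over time at 250 µM it gave 1 (24 h replicate 2) to 8, with more lower than higher without 24 h replicate 1, 2 or 4 (3, 1 and 3 calls) or 48 h replicate 5 (3 calls), and fewer calls without 48 h replicate 1, 3 or 4 (5, 2 and 2). Over time at 1000 µM it gave 5 (48 h replicate 5) to 19 (48 h replicate 3), with 6 without 24 h replicate 3 or 48 h replicate 4. For the change of effect it gave 13 (48 h vehicle replicate 3) to 31 at 250 µM and 0 to 2 (48 h vehicle replicate 4) at 1000 µM. The cause of these shifts was not tested.

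Among 134 named gene results, 68 of them called, changes outside single arrays were 101 calls lost, 19 gained and 1 reversed, summed over all settings. Signal near the filter limit leaves Cox6a2, Cox4i2 and Cox7a1 imprecise. The labels carry no shared replicate numbers. Replicates are numbered here within each group in accession order, which runs through the 6 groups in turn. The labels do not say whether arrays of the same number share cells or a day, so no paired analysis was run.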
